A study of Mus musculus with 9 samples.

Results

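The snoRNA host noncoding genes are the 12 rows of the gene table whose symbol is Gas5 or Snhg followed by a number, with an RPKM (reads per kilobase of transcript, scaled to the mapped reads of the library) above 0 in at least 1 library. They were Gas5, Snhg1 and Snhg3 to Snhg12, 12 of the 24132 rows in all, and were chosen by name alone. RIPiT-seq measured them in V6.5 mouse embryonic stem cells (ESCs) grown without feeders and with LIF. All 3 lines had been infected with a lentivirus, which carried no cDNA (empty vector), FLAG-HA-tagged human WDR5 (WT), or FLAG-HA-tagged WDR5 with the F266A substitution (F266A), a mutant made to weaken the binding of RNA. The study selected transduced clones, its F266A construct also lacked the N-terminal end of the protein, and every line kept its own WDR5. Cells were fixed with formaldehyde, WDR5 was purified on FLAG and then on HA, and the RNA recovered (IP) was sequenced from 2 IP libraries a line beside 1 unreplicated library of total RNA (input), 9 libraries in all. The labels do not say that the IP libraries of a line came from separate cultures, so p-values measure the spread between these libraries, which may be technical.

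Small nucleolar RNAs (snoRNAs) guide the chemical modification of ribosomal RNA: those with boxes C and D direct ribose methylation, and those with boxes H and ACA direct pseudouridylation. Vertebrate snoRNAs are mostly cut out of the introns of a longer host transcript after splicing. Some hosts code for ribosomal proteins or translation factors, and others, such as Gas5 and the Snhg genes, make a spliced RNA with no long reading frame, which for Gas5 and Snhg1 is known to be translated in part and removed by nonsense-mediated decay. Many hosts of both kinds start transcription in a run of pyrimidines, the terminal oligopyrimidine (TOP) motif of ribosomal protein genes. WDR5 is a core subunit of the complexes that methylate lysine 4 of histone H3.

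In GENCODE M1, the annotation of the mm9 build that the authors used, 9 of the 12 genes are named, and 32 snoRNA genes lie inside them on the same strand. Gas5 (chr1:162964553-162968670, plus strand) holds 9 of these and Snhg1 (chr19:8797986-8800932, plus strand) holds 8. Snhg12 (chr4:131864593-131866939, plus strand) holds 4, and Snhg3 (chr4:131903929-131909601, minus strand), Snhg4, Snhg5 (chr9:88415894-88417721, minus strand), Snhg7 (chr2:26492697-26495764, minus strand) and Snhg11 (chr2:158201374-158211881, plus strand) hold 2 each. Snhg9 (chr17:24856476-24856910, minus strand) holds 1, Snora78, and lies inside Rps2 on the opposite strand. Of the 32, 8 lie wholly in introns, and 23 lie within an exon of some transcript of the host, since the annotation includes transcripts that retain introns. Snhg3 shares 135 exonic bases with Rcc1 on the same strand, and the antisense gene Gm17300 covers 705 of its exonic bases. The library kit is not stated to keep strand, so reads of overlapping genes, and reads of a snoRNA and of unspliced host RNA, cannot be told apart.

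The starts of 9 of the genes are shown, 7 with the motif searched and Snhg1 and Snhg5 without it, because the TOP motif is the feature of sequence for which host genes are known. Each sequence runs from 20 bases before the RefSeq start to the base 40 of the transcript, from the RefSeq table of promoters (GRCm38.p6), with coordinates from its 1 exact match in mm9. Capitals mark a C followed by at least 4 further pyrimidines (C or T), where that C lies within 5 bases of the start on the strand of the gene.
Gas5, downstream start (chr1:162965277-162965336, plus strand): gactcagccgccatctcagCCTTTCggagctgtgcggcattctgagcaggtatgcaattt
Snhg7 (chr2:26495725-26495784, minus strand): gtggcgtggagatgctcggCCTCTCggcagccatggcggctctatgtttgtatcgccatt
Snhg8 (chr3:123211215-123211274, minus strand): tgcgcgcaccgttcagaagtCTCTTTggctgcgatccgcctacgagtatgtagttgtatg
Snhg12 (chr4:131864573-131864632, plus strand): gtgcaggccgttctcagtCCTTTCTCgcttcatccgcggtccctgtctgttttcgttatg
Snhg3 (chr4:131909562-131909621, minus strand): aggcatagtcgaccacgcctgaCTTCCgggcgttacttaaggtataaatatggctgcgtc
Snhg10 (chr12:106270450-106270509, minus strand): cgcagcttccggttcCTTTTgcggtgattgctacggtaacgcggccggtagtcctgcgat
Snhg9 (chr17:24856871-24856930, minus strand): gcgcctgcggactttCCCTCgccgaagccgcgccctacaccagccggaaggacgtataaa
Snhg1 (chr19:8797957-8798016, plus strand): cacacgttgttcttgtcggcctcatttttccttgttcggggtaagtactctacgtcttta
Snhg5 (chr9:88417696-88417755, minus strand): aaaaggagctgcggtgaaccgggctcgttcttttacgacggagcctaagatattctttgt

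The table of promoters held 10 of the 12 genes, and 7 of the 10 had such a run at a start. Of all 27025 genes in the table, 19.7% had one, and so did 17.1% of its 32851 windows. In Snhg12 the run was 8 bases long, and in Gas5, Snhg7 and Snhg8 it was 6. Snhg1, Snhg5, Snhg11 and the upstream start of Gas5 had no match to these letters in this window.

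The libraries held an estimated 13400000 to 50400000 mapped reads, taken from the spacing of the lowest RPKM values, with the inputs at 37500000 or more. Markers of ESCs summed to 406 to 662 RPKM in every library, and those of fibroblasts to 0.45 to 1.59. F266A IP replicate 1 stood apart from its line. The summed RPKM of 4 Y-linked genes was 0.038 there, against 4.43 for the input and 7.21 for the other IP of that line, 7.42 to 9.50 in the empty vector libraries and 0.18 to 0.32 in the WT libraries. Markers of primitive endoderm summed to 9.88 RPKM in that library, against 28.7 for the input and 39.3 for the other IP of F266A, and to between 8.16 and 9.82 in the other lines. In bulk libraries, fewer cells of a type and less RNA per cell cannot be told apart. The part of these differences in the results was not tested, so the main results that use F266A IPs are also given without that library.

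The levels of the 12 genes spanned from under 1 to almost 90 RPKM. Snhg5, Snhg1, Gas5 and Snhg4 held the highest 4 places in all 9 libraries, and Gas5, Snhg1 and Snhg5 together made up 52.8% to 65.0% of the summed RPKM of the 12. Snhg6, Snhg7, Snhg12, Snhg3 and Snhg8 followed, with median levels between 9.28 and 14.5 RPKM, and traded places between libraries. Snhg11 had a median of 5.73 RPKM. Snhg9 and Snhg10 were last in every library, with medians of 0.93 and 0.88 RPKM, and Snhg9 rested on an estimated 0.99 to 7.84 reads a library. The 12 genes summed to 111 to 157 RPKM in the 3 inputs and to 211 to 326 RPKM in the 6 IPs, without overlap.

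**Figure D1:**
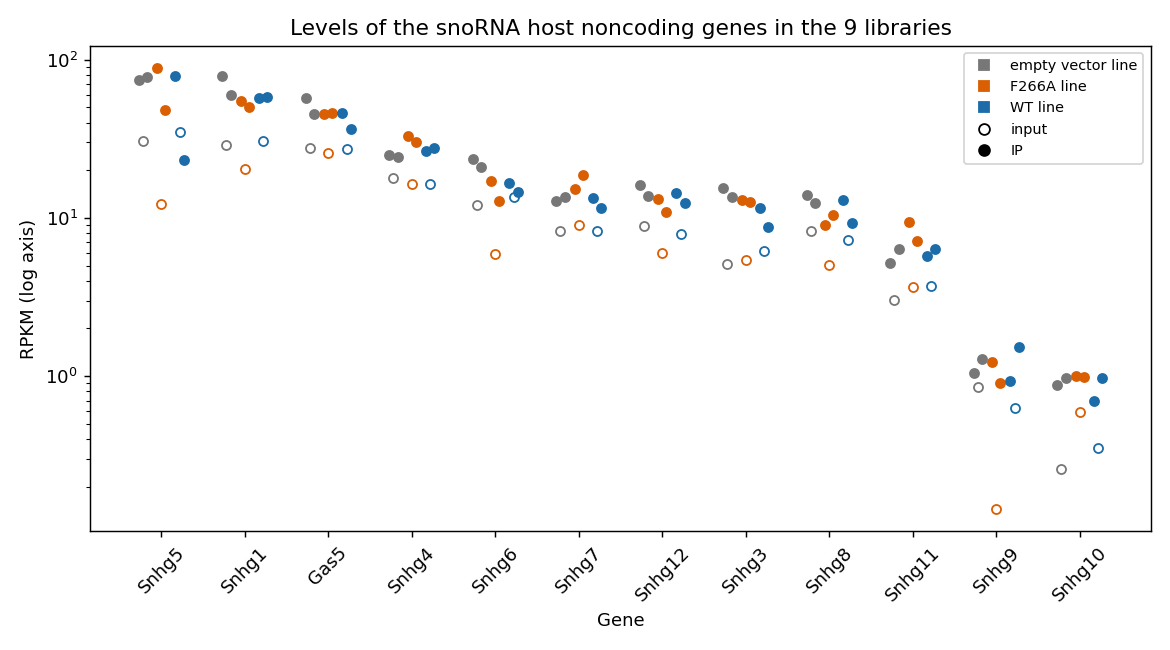
RPKM (log axis) of the 12 host genes in each of the 9 libraries, coloured by line, with open circles for the input and filled circles for the IPs. Filled circles lie above open circles of the same colour everywhere except for Snhg5 in the WT line, where IP replicate 2 (23.2 RPKM) lies below the input (35.1 RPKM).

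Gas5, known as a gene whose spliced RNA accumulates when growth stops, stood at 27.5 RPKM in the empty vector input and at 57.7 and 45.2 in the IPs of that line. In the F266A line it was at 25.6 in the input and at 45.1 and 46.3 in the IPs, and in the WT line at 27.5 in the input and at 45.8 and 36.7 in the IPs. The inputs differed by less than 2 RPKM, and every IP lay above every input.
Snhg1, the host of a cluster of box C/D snoRNAs, stood at 28.7 RPKM in the empty vector input and at 79.5 and 60.3 in the IPs, at 20.5 in the F266A input and at 54.7 and 49.9 in the IPs, and at 30.4 in the input of WT and at 57.4 and 58.0 in the IPs. Every IP lay above every input here too, and the highest IPs were those of the empty vector line, which carried no tagged WDR5.
Snhg3, the host of Snora73a and Snora73b (the U17 snoRNAs of early ribosomal RNA processing), stood at 5.12 RPKM in the empty vector input and at 15.5 and 13.5 in the IPs, at 5.46 in the F266A input and at 13.1 and 12.5 in the IPs, and at 6.16 in the input of WT and at 11.5 and 8.80 in the IPs. Its WT input was the highest input and its WT IPs were the lowest IPs.

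Snhg5, the host of the Snord50 snoRNAs, varied most between the IPs of the F266A and WT lines. It stood at 30.7 RPKM in the empty vector input and at 74.7 and 78.2 in the IPs, at 12.3 in the F266A input and at 88.8 and 48.3 in the IPs, and at 35.1 in the input of WT and at 79.5 and 23.2 in the IPs. The WT IPs differed by 1.73 on the scale of log2(RPKM + 1), a larger gap than in 99.8% of the 9787 genes tested, and the F266A IPs differed by 0.87, a larger gap than in 98.4% of them.
Snhg6, the host of Snord87, stood at 12 RPKM in the empty vector input and at 23.6 and 21.1 in the IPs, at 5.92 in the F266A input and at 17.1 and 12.8 in the IPs, and at 13.6 in the input of WT and at 16.7 and 14.5 in the IPs. For both genes the F266A input was the lowest of the 9 libraries, and the levels of IPs and inputs overlapped across lines.
Snhg4, the host of Snora74a, stood at 18 RPKM in the empty vector input and at 24.9 and 24.2 in the IPs, at 16.3 in the F266A input and at 32.9 and 30.1 in the IPs, and at 16.3 in the input of WT and at 26.4 and 27.6 in the IPs. It was the only one of these 6 genes with its highest IP pair in the F266A line and its lowest in the empty vector line.

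The question of IP against input is which RNAs were recovered above their share of total RNA. It was tested with limma over the 9787 genes that reached 1 RPKM in at least 2 libraries, on log2(RPKM + 1) with the line as a term, and p-values were adjusted by Benjamini-Hochberg over all of them. Of the 12 genes, 11 were tested, and all 11 were higher in the IPs at an adjusted p under 0.05. The background was large, since 63.8% of the genes tested were higher and the median over all of them was 0.30. Snhg10 reached 1 RPKM in 1 library alone and was not tested. It stood at 0.26 to 0.60 RPKM in the inputs and at 0.70 to 1 in the IPs. Snhg9 passed the filter through its IPs, all its inputs being under 1 RPKM.

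The 11 differences ran from 0.50 to 1.30 on this log2 scale, with a median of 0.75, and all lay above the median of all genes. Snhg5 had the largest difference and the largest error, 1.30 ± 0.41 (SE, adjusted p = 0.0195), and Snhg1 followed at 1.15 ± 0.11 (adjusted p = 0.000145). Snhg3 differed by 1.02 ± 0.13 (adjusted p = 0.000468) and Gas5 by 0.75 ± 0.11 (adjusted p = 0.000646). The other 7 were Snhg11 (0.77), Snhg12 (0.76), Snhg6 (0.74), Snhg4 (0.68), Snhg8 (0.66), Snhg7 (0.65) and Snhg9 (0.50). The difference of Snhg5 was larger than that of 99.8% of the genes tested, and that of Snhg9 larger than that of 84.6%. In 9 of the 11 genes the lowest of the 6 IPs lay above the highest of the 3 inputs, as in 42.2% of the genes tested, and Snhg5 and Snhg6 were the others. Snhg9 is 1 of the 9, but it passed the filter through its IPs, so the filter favoured its rise. Under the filter of 1 RPKM in all 9 libraries, which drops Snhg9, 10 of 10 were higher, against 74.4% of genes.

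Because most genes were higher in the IPs, the test was repeated with each library centred on its own median. Then 7 of the 11 genes were higher (Snhg1, Snhg3, Snhg11, Snhg12, Gas5, Snhg4 and Snhg7), against 4.67% of the genes tested, and the median of the 11 was 0.44. With quantile normalization 4 of the 11 were higher (Snhg1, Snhg3, Snhg11 and Snhg12), against 2.53% of the genes tested, and the median was 0.30. No member turned in direction under either scaling. Without F266A IP replicate 1, all 11 were higher and their median was 0.70.

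**Figure D2:**
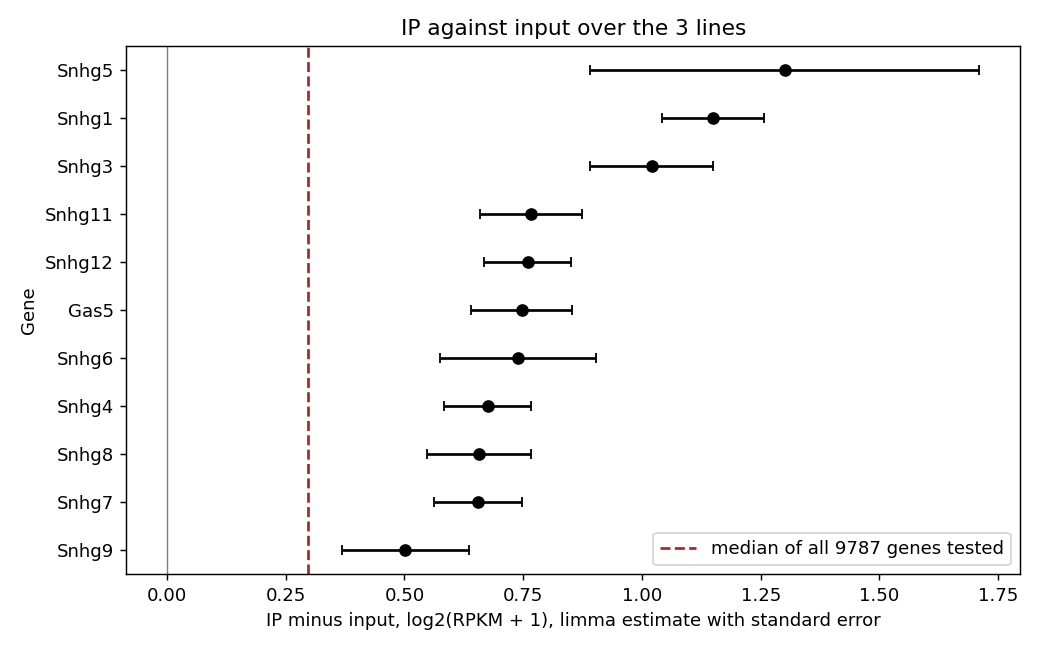
Difference between IP and input over the 3 lines for the 11 host genes tested (limma estimate on log2(RPKM + 1), bars are standard errors). The dashed line is the median of all 9787 genes tested, 0.30, and all 11 points lie to its right, from Snhg9 at 0.50 to Snhg5 at 1.30.

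The empty vector line contains no tagged WDR5, so its IPs give the background of the purification. The enrichment score of an IP is its log2(RPKM + 1) minus that of the input of the same line. In the empty vector IPs the scores of the 12 genes ran from 0.14 (Snhg9) to 1.44 (Snhg1) in replicate 1 and from 0.30 (Snhg9) to 1.32 (Snhg5) in replicate 2, all above 0. The median score of the 11 genes tested was 0.80 and 0.70 in the empty vector IPs, 1.01 and 0.92 in those of F266A, and 0.72 and 0.45 in those of WT. Over all genes tested the medians were 0.27 and 0.26 in the empty vector IPs, 0.39 and 0.35 in those of F266A, and 0.27 in each WT IP. The WT IPs were thus not the IPs with the highest scores for these genes, and the one score below 0 was that of Snhg5 in WT IP replicate 2, at -0.58.

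The study's rule for an RNA bound by WDR5 asks that the lower WT score be above 0 and above the highest of the 4 control scores. None of the 12 genes met it, against 4.79% of the 24132 rows. Snhg4 came nearest, with a lower WT score of 0.66 against a highest control score of 0.97 (F266A IP replicate 1), and Snhg10 was short by 0.31 as well. Snhg12 was short by 0.41 and Snhg1 by 0.54, and Snhg5, short by 3.33, was farthest. Scores with a common input, with libraries centred, with a smaller pseudocount or with any 1 IP left out gave 0 of 12 again.

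**Figure D3:**
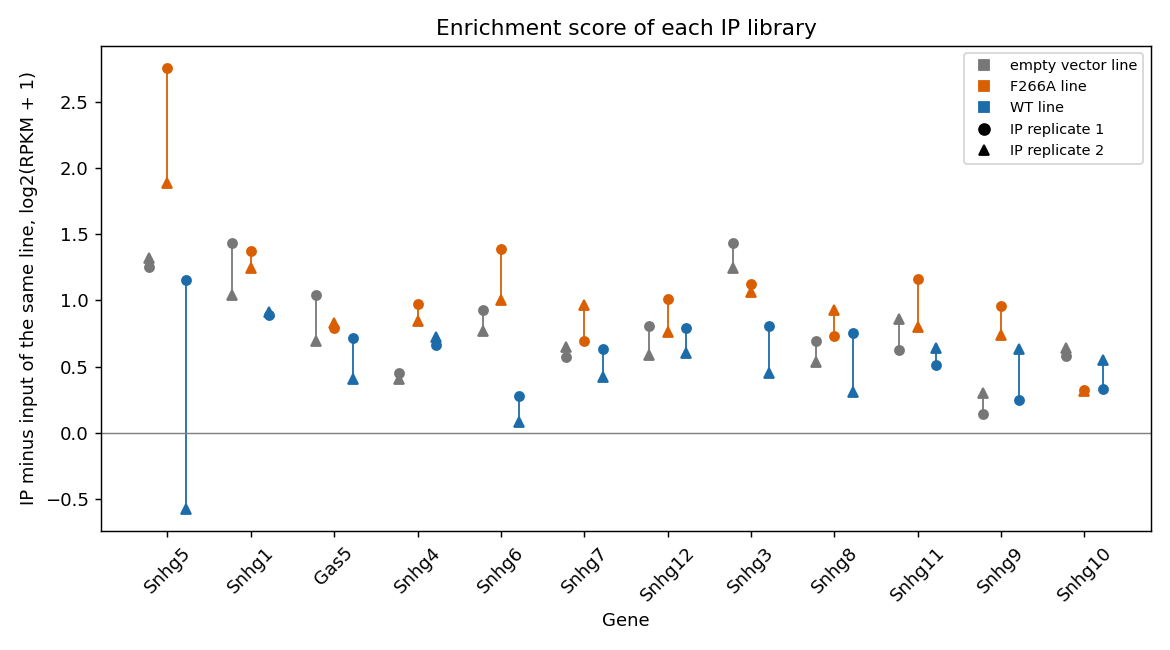
Enrichment score of each IP (IP minus the input of the same line, log2(RPKM + 1)) for the 12 host genes, with the replicates of a line joined by a bar. In no gene do both WT points lie above all 4 points of the control lines, and the WT points of Snhg5 stand 1.73 apart.

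Whether the recovery depended on tagged WDR5, or on the F266A residue, was asked by comparing enrichment between lines in 1 limma fit of all 9 libraries. None of the 11 genes tested was called between WT and F266A, between WT and empty vector or between F266A and empty vector, and the share of all genes called was 0% in each. At an unadjusted p under 0.05 there were 2 of the 11, 2 and 1, against 2.65%, 1.77% and 2.48% of all genes. With 1 input a line, the error of the input enters each of these differences unreplicated.

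Between WT and F266A all 11 differences were negative, that is lower in WT, with a median of -0.40 against -0.09 over all genes. Most genes tested were lower in WT too, since the difference of Snora78, at 9.5e-05, was larger than that of 68.4% of them. Snhg5 had the lowest of all 9787 values, at -2.03 ± 0.86 (SE, unadjusted p = 0.045), and Snhg6 was at -1.01 ± 0.28 (unadjusted p = 0.00601). The others lay between -0.47 (Snhg3) and -0.19 (Snhg12). Without F266A IP replicate 1 all 11 were still negative, with a median of -0.34 and Snhg5 at -1.60. Without WT IP replicate 2 Snhg5 was at -1.17, and without WT IP replicate 1 at -2.90. With the mean of the 3 inputs in place of the input of each line, 5 of the 11 turned positive (Snhg1, Snhg6, Snhg8, Snhg9 and Snhg12), and Snhg6 was at 0.07. A common input cancels between lines, so these are the differences of IP level taken up again below. The F266A input held the lowest input level of 8 of the 12 genes, and the share of all genes with their lowest input there was not counted. Over all genes the median difference moved too, from -0.09 with the input of each line to 0.01 with the common input.

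Between WT and empty vector, the differences had a median of -0.16 against 0.01 over all genes. Snhg3 was at -0.71 ± 0.26 (unadjusted p = 0.023) and Snhg6 at -0.67 ± 0.28 (unadjusted p = 0.041), and Snhg4 (0.26) and Snhg9 (0.22) were the members above 0. Without WT IP replicate 1 the median was -0.30, and without WT IP replicate 2 it was -0.13, with 5 of the 11 above 0. Between F266A and empty vector the median was 0.22 against 0.10 over all genes, with Snhg4 at 0.48 ± 0.21 (unadjusted p = 0.04997) and Snhg5 at 1.04 ± 0.86. Without F266A IP replicate 1 the median was 0.15, Snhg4 was at 0.41 (unadjusted p = 0.0875) and Snhg5 at 0.60. These comparisons share their libraries, so their values are not independent of each other.

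**Figure D4:**
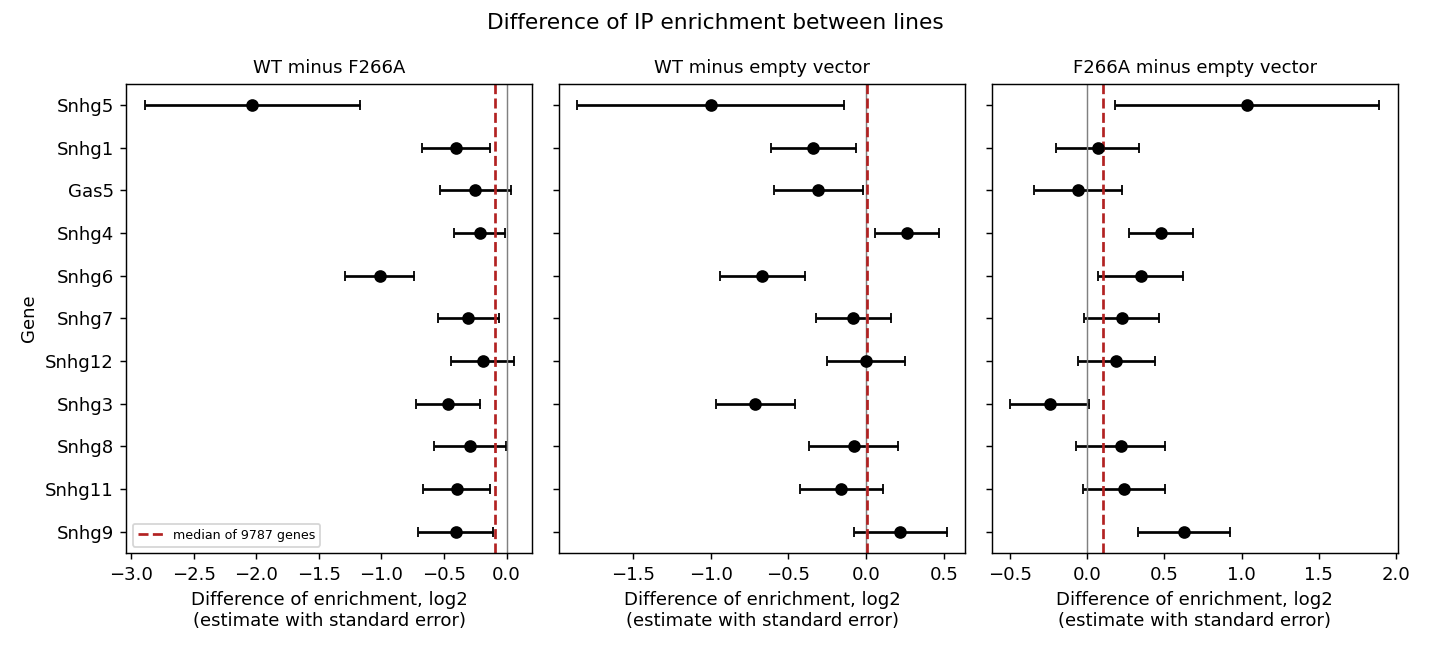
Difference of IP enrichment between lines for the 11 host genes tested (limma estimates on log2(RPKM + 1), bars are standard errors), with the median of all genes as a dashed line. All 11 points lie below 0 for WT minus F266A, where the median of all genes is also below 0, at -0.09. No difference passed the adjusted threshold in any panel.

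The IP levels were also compared directly, without the inputs, which gives the same values as a common input for every line. None of the 11 genes was called between WT and F266A, where 1.16% of the genes tested were called in either direction, between WT and empty vector, where 0% were, or between F266A and empty vector, where 4.55% were. At an unadjusted p under 0.05 there were 2, 2 and 6 of the 11, against 15.5%, 5.69% and 20.4% of all genes. Between F266A and empty vector the median of the 11 was -0.17. It was -0.20 without F266A IP replicate 1, -0.14 without empty vector IP replicate 1 and -0.26 without empty vector IP replicate 2. Between WT and empty vector the median was -0.25. It was -0.12 without empty vector IP replicate 1 and -0.05 without WT IP replicate 2. Fits without 1 IP leave 1 IP in a line, so the counts at an unadjusted p hold for the full set of libraries only. The 6 between F266A and empty vector were Snhg6 (-0.56), Snhg8 (-0.41) and Snhg1 (-0.40), lower in F266A, and Snhg11 (0.45), Snhg4 (0.34) and Snhg7 (0.34), higher in F266A. Without F266A IP replicate 1, Snhg8 was at -0.31, Snhg1 at -0.46, Snhg11 at 0.27, Snhg4 at 0.28 and Snhg7 at 0.47. The difference of Snhg6 between F266A and empty vector had an adjusted p of 0.0919 (limma), and without F266A IP replicate 1 the difference was -0.76. Between WT and empty vector, Snhg6 was at -0.50 and Snhg3 at -0.48, and between WT and F266A, Snhg7 was at -0.42 and Snhg11 at -0.39, or at -0.55 and -0.21 without F266A IP replicate 1. Without WT IP replicate 2, Snhg3 was at -0.31 against empty vector.

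RNAs cut out of the hosts have rows of their own in the table. Of the 36 snoRNA symbols listed for these hosts, 13 had a row, from 9 hosts, and 12 were tested. In IP against input 8 of the 12 were higher, near the share of 63.8% over all genes, with a median of 0.54 against 0.30. With libraries centred 3 of the 12 were higher, against 4.67%, and these were the 3 with the largest differences. Their sequences are shown here because their rows moved most. They are from mm9 at the positions of GENCODE M1, with capitals for the ACA near the 3′ end of the box H/ACA RNAs and for the last CTGA (box D) of Snord22.
Scarna13, in Snhg10 (chr12:106269285-106269559, minus strand): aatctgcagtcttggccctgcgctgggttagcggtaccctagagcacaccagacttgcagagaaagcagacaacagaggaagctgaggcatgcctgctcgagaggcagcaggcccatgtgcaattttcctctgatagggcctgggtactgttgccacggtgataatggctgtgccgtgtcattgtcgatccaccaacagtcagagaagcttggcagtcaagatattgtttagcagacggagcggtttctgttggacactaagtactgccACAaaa
Snord22, in Snhg1 (chr19:8800356-8800481, plus strand): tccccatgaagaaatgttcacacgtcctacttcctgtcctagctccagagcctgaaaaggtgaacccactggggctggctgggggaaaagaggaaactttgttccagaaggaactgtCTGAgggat
Snora43, in Snhg7 (chr2:26493367-26493505, minus strand): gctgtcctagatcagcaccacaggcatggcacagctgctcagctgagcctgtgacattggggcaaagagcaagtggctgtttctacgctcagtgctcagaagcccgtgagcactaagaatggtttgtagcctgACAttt

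Scarna13 is a small RNA of Cajal bodies, the class that guides the modification of spliceosomal RNAs. It stood at 11.6 RPKM in the empty vector input and at 33.7 and 31.3 in the IPs, at 8.33 in the F266A input and at 30.5 and 25.1 in the IPs, and at 10.5 in the input of WT and at 33.0 and 31.7 in the IPs. Every IP lay above every input. The IPs of WT and empty vector overlapped, and both F266A IPs lay below them. The difference was 1.52 ± 0.08 (SE, limma adjusted p = 1.42e-05), rank 5 of the 9787 genes, while the row of its host Snhg10 stayed at about 1 RPKM or less in every library.
Snord22 stood at 2.83 RPKM in the empty vector input and at 7.0 and 6.76 in the IPs, at 0.63 in the F266A input and at 4.02 and 3.90 in the IPs, and at 2.41 in the input of WT and at 6.95 and 7.19 in the IPs. Its IP level was 0.70 ± 0.10 higher in WT than in F266A (limma adjusted p = 0.0319) and 0.67 lower in F266A than in empty vector (limma adjusted p = 0.0192), so the F266A IPs were the low ones and WT and empty vector overlapped. Without 1 of the WT or empty vector IPs, or without F266A IP replicate 2, the call between WT and F266A was lost. The differences there stayed at 0.68 to 0.72. Without either empty vector IP the call between F266A and empty vector was lost, with differences of -0.65 and -0.69. Such fits leave 1 IP in a line, so a lost call is not read as a change of Snord22. No difference of enrichment was called for it, and there F266A stood highest instead. Against the input of its own line, Snord22 was 0.57 ± 0.18 (SE) higher in F266A than in empty vector. It was 0.36 ± 0.18 lower in WT than in F266A, its F266A input being the lowest of the inputs.
Snora43 had a mean of 6.18 RPKM in the inputs and of 12.1 in the IPs, and differed by 0.86 ± 0.11 (SE, limma adjusted p = 0.000473).

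Of the other hosted rows with a mean of at least 1 RPKM, Snora16a (0.62), Snora24 (0.55), Snora44 (0.54), Snora74a (0.50) and Snora17 (0.44) were higher in the IPs. Snora78 (0.56 ± 0.29) and Snora61 (0.48 ± 0.26) did not pass the test. Snora16a passed the filter through its IPs, with inputs at 1.38, 0.39 and 0.22 RPKM, so the filter favoured its rise. It counts among the hosted rows called higher above. Snora61 and Snora78 also passed the filter only with their IPs. Snora17 and Snora43 are both box H/ACA RNAs in Snhg7, whose own difference was 0.65. Snord87, in Snhg6, was the one hosted row to meet the study's rule, which 4.79% of all rows met, and was too low to be tested. It stood at 0.02 RPKM in the input of WT and at 1.15 and 0.37 in its IPs, at 0.27 in the F266A input and at 0.48 and 0.65 in its IPs, and at 0.27 in the empty vector input and 0 in its IPs. Its lower WT score was above the highest control score by 0.04, and both F266A IPs lay above WT IP replicate 2.

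**Figure D5:**
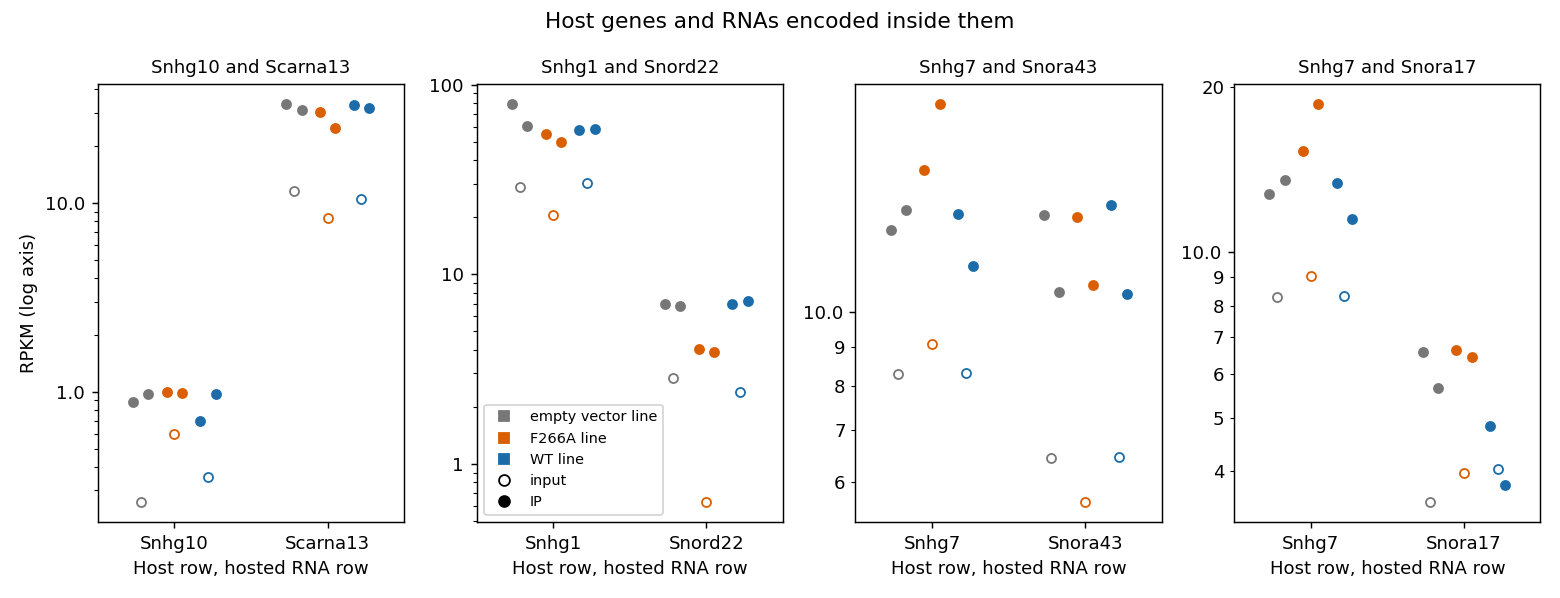
RPKM (log axes that differ between panels) of 3 host genes and of 4 RNAs encoded inside them in the 9 libraries, with open circles for inputs and filled circles for IPs. Scarna13 lies between 8.33 and 33.7 RPKM, above its host Snhg10 in every library. The F266A IPs of Snord22 (4.02 and 3.90) lie below the IPs of the other lines, and its F266A input (0.63) lies below the other inputs.

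Genes of the same pathway were described by the same test of IP against input, in which 63.8% of all genes were higher, 0.51% were lower and the median was 0.30. Of 33 protein-coding snoRNA hosts 29 were higher in the IPs, with a median of 0.44, led by Nop56 (0.88), a core protein of box C/D particles, and Eif4a1 (0.86), a translation initiation helicase. Of 19 snoRNP proteins and assembly factors 17 were higher, with a median of 0.40, led by Nop56 and Nop10 (0.55), a protein of box H/ACA particles. Of 18 nonsense-mediated decay factors 16 were higher, with a median of 0.38, led by Rnps1 (0.59) and Upf3a (0.53). Of 12 other long noncoding RNAs, among them Rian and Dancr, which also host snoRNAs, 8 were higher and 1 was lower, with a median of 0.27. Mirg (0.97) and Rian (0.72) led, and Tsix fell by 0.25 on the log2 scale. With libraries centred, the lists had 4, 1, 1 and 1 genes higher, against 4.67% of all genes, so most of these calls were lost relative to the median of all genes. They had 0, 0, 1 and 4 genes lower, against 4.32% of all genes.

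Between lines, none of the 11 host genes, 33 protein-coding hosts, 19 snoRNP proteins, 18 decay factors and 12 other noncoding RNAs was called in enrichment. In the IP level of F266A against empty vector 8 of the 33 protein-coding hosts were lower, where 3.38% of all genes were lower. The median of the 33 was -0.47 with F266A IP replicate 1 and -0.43 without it. The fit without it leaves 1 F266A IP, so the 8 calls hold for the full set of libraries and are not carried over to it. With quantile normalization 1 of the 33 was lower, against 1.73% of all genes, and the median was -0.07. The 11 host genes had a median of -0.17 in that comparison.

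Rows that RefSeq now names as Snhg genes stand in the table under older names and were not counted as members. Of these 8 rows 6 were tested and 5 were higher in IP against input, with a median of 0.48, against 63.8% of all genes, and with libraries centred 1 of the 6 was. The row of Snhg15 (0.89) rose from between 3.17 and 3.86 RPKM in the inputs to between 6.29 and 8.34 RPKM in the IPs.

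The 11 host genes varied together over the libraries. The correlation of each with the mean log2(RPKM + 1) of the others ran from r = 0.75 (Snhg11) to r = 0.95 (Snhg12) over the 9 libraries, which share inputs and IPs of the same lines. Among the 1460 genes with a mean of at least 10 RPKM, the 5 whose pattern was most like the mean of the 11 were Cct6a (r = 0.99, over 9 libraries), a chaperonin subunit that also hosts a snoRNA, Psip1, Acat2, Rsl1d1 and Vapa (each r = 0.98 to 0.99). These correlations are a description of 9 libraries in which the IPs and inputs stood apart.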

How the data were processed

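RIPiT-seq libraries of 3 ESC lines were analysed, with 2 IPs and 1 input a line, grouped by their labels. The authors mapped 50 nt reads to mm9 with TopHat 1.1.3, computed RPKM per RefSeq symbol with their own script and deposited 1 table of RPKM. How transcripts were collapsed is not given in the sources used here. RPKM keeps each library relative to its own total, so a rise of some RNAs lowers others. From the deposited RPKM, log2(RPKM + 1) was tested with limma 3.58.1 (R 4.3.3; lmFit and eBayes with trend) over genes of at least 1 RPKM in at least 2 libraries, with Benjamini-Hochberg adjustment and a threshold of 0.05. IP against input used line and fraction as terms, and comparisons between lines used 1 coefficient per line and fraction. The procedure was tested on simulated data. The host genes, the other lists and the tests were chosen with earlier results of these data known. Every host gene was named, with hosted rows of a mean RPKM of at least 1, the 2 genes of each list with the largest called rise and fall, and the 5 genes most like the mean. Snord87 and Snhg15 were named after their values were seen. Alternatives were the pseudocount (0.1), the filter, the normalization, the eBayes trend, the input used, a replicate block and leaving out each IP. Replicate numbers did not pair the libraries (r of replicate differences 0.26, 0.11 and 0.01), so no block was used. Depth was only estimated, and no counts were given.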

Additional observations from a re-analysis of the deposited data

How the results depend on the processing

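The count of host genes higher in IP against input was 11 and stayed at 11, or at 10 of 10 under the filter of 1 RPKM in all 9 libraries, except that it fell to 7 with libraries centred on their median and to 4 with quantile normalization. Those scalings remove the median difference of 0.30 over all genes tested, by their construction, and quantile normalization also gives every library the same distribution of values. Among the single values of that comparison, 168 kept their call and 12 lost it, 11 of them under these scalings, the other being Snhg5 without a filter (adjusted p = 0.0842, limma). None changed sign. Between lines, the count of host genes called was 0 in all 6 comparisons under every alternative that kept all 9 libraries, with 1 exception. On the IP level of F266A against empty vector, the replicate block gave 1 lower (Snhg6), where 4.42% of all genes were lower. Fits without 1 IP leave 1 IP in a line, so their calls are not counted here. The block of replicate numbers changed no other count of host genes called, and the numbers did not pair the libraries. With the mean of the 3 inputs, the difference of enrichment between WT and F266A turned to 0.14 in Snhg1, 0.0667 in Snhg6, 0.16 in Snhg8, 0.10 in Snhg9 and 0.16 in Snhg12, since the low F266A input then no longer enters. A common input cancels, so these equal the differences of IP level and are not a further check beside them. The calls of Snord22 were also lost without a filter (adjusted p = 0.167 and 0.12, limma), where 0% and 0.01% of all genes were called. The cause was not tested. The count of host genes meeting the rule was 0 under all 10 alternatives, where 0.92% to 13.9% of all rows met it. Snhg9 and Snhg10 lie at the depth limit.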
